A study of Mus musculus with 4 samples.

Results

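The CXC chemokines are small secreted proteins that direct leukocyte movement, and 9 of their genes were followed here in mouse Langerhans cells, which are antigen-presenting cells of the epidermis. The members were taken by symbol from the deposited count table, Cxcl1, Cxcl2, Cxcl3, Cxcl5, Cxcl9, Cxcl10, Cxcl11, Cxcl14 and Cxcl16, each with 1 row among 55487 genes. Langerhans cells had been isolated from the ears of wild-type mice, and 2 libraries came from ears treated with imiquimod and 2 from ears treated with Vaseline. Imiquimod is a Toll-like receptor 7 agonist whose application to skin gives a psoriasis-like inflammation, and Vaseline was the control treatment. The comparison addresses what imiquimod does to gene expression in these cells. Strain, age, sex, the number of mice per library and the duration of treatment were not given in the sources used here, and the labels do not say whether replicate libraries stem from different mice. The p-values therefore measure only the sample-to-sample spread, and that may be technical. The sample descriptions carry one shared letter code for the Vaseline libraries and a separate code for each imiquimod library. Their meaning is not stated, so anything they mark cannot be told apart from treatment.

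CXC chemokines are named for a pair of cysteines near the amino end with a single residue between them. Cxcl1, Cxcl2, Cxcl3 and Cxcl5 carry a glutamate-leucine-arginine motif before those cysteines, bind CXCR2 and draw neutrophils. They are induced by NF-kappaB downstream of IL-1, TNF and IL-17. Cxcl9, Cxcl10 and Cxcl11 bind CXCR3 on activated T cells and natural killer cells and are induced by interferons. Cxcl14 is made constitutively by epithelia, including epidermis. Cxcl16 is made as a membrane-bound protein that binds CXCR6, and the proteases ADAM10 and ADAM17 can release it.

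Promoter sequence was at hand for 6 of the 9 members, Cxcl1, Cxcl2, Cxcl3, Cxcl9, Cxcl10 and Cxcl14, from the RefSeq table on build GRCm38.p6. The bases before the RefSeq transcription start are shown for the neutrophil-directed members Cxcl1, Cxcl2 and Cxcl3 and for the CXCR3 ligand Cxcl10. These genes lie on chromosome 5. The GENCODE vM21 annotation starts Cxcl2 at 90903871 and Cxcl1 at 90891241, within the stretches shown, so distances to the start depend on the annotation. All stretches are written 5′ to 3′ on the strand of the gene. Capitals mark matches to the NF-kappaB consensus and, in Cxcl10, also to the interferon-stimulated response element core (GAAA, any 2 bases, GAAA), which is the first capital run there.
Cxcl1, chr5:90891145-90891244, plus strand: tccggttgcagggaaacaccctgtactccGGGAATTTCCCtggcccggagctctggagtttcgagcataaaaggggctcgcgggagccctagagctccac
Cxcl2, chr5:90903799-90903898, plus strand: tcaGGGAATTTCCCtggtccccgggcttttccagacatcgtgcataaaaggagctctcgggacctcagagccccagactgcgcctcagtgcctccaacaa
Cxcl3, chr5:90786001-90786100, plus strand: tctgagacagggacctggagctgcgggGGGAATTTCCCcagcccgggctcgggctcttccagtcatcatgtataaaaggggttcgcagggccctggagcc
Cxcl10, chr5:92348890-92349109, minus strand: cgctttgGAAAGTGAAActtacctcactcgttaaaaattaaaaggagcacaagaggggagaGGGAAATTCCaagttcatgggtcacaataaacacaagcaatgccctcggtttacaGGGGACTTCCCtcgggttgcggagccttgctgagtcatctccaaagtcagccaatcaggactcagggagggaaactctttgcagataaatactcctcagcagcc

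Cxcl1, Cxcl2 and Cxcl3 held the same 11-base run, GGGAATTTCCC, in which the consensus matches on both strands and the matches overlap. Over the 250 bases before the RefSeq start, on both strands, the NF-kappaB consensus was found in 4 of the 6 member promoters and in 7.25% of all 32851 promoters of the table. The interferon-stimulated response element core was found in Cxcl10 and Cxcl14 and in 2.98% of all promoters. The gamma-activated sequence TTCNNNGAA was found in Cxcl14 alone among the 6 and in 7.02% of all promoters. The letters TATAAA of the TATA box were found in Cxcl3 and Cxcl9 and in 12.4% of all promoters. That match began at -30 from the RefSeq start in Cxcl3 but at -195 in Cxcl9. These are matches of letters and not measured sites.

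Library totals were 14902782 and 20690182 counts in imiquimod 1 and 2 and 41998172 and 76028955 in Vaseline 1 and 2. The 9 members together took 0.138% and 0.124% of the counts in imiquimod 1 and 2, against 0.0799% and 0.124% in Vaseline 1 and 2. Levels are given as CPM, which are counts scaled to a common library size with TMM factors (edgeR's correction of library totals for composition). Cd207, which encodes langerin and defines these cells, was present in every library, with 1199 and 573 CPM in imiquimod 1 and 2 and 2250 and 6869 CPM in Vaseline 1 and 2. The basal keratinocyte gene Krt14 was also present in every library, with 6488 and 1722 CPM in imiquimod 1 and 2 and 5548 and 7489 CPM in Vaseline 1 and 2. In bulk RNA of this kind, fewer cells of a type and less RNA per cell cannot be told apart. Reads also lay over genes with no known use in skin: the median over 1474 olfactory and vomeronasal receptor genes was 0.507 and 0.770 CPM per exonic kilobase in imiquimod 1 and 2, and 0.394 and 0.157 in Vaseline 1 and 2. This median is called the background below.

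Cxcl2 and Cxcl16 dominated the family in every library, and together they made up 86.7% and 84.3% of its counts in imiquimod 1 and 2, against 90.1% and 93.4% in Vaseline 1 and 2. Per exonic kilobase, the mean level over the 4 libraries was 247 CPM for Cxcl2 and 199 CPM for Cxcl16, with ranges of 144 to 463 and 109 to 322 that overlapped. Cxcl1 followed at 32.3 CPM per kilobase (range 13.7 to 53.9) and Cxcl14 at 16.5 (range 5.40 to 24.1), and these also overlapped. Cxcl10, at 5.15, and Cxcl3, at 5.01, had overlapping ranges and stood next. Cxcl9, Cxcl11 and Cxcl5 were last, at 1.22, 0.781 and 0.700 CPM per kilobase, with ranges that overlapped. Where retained-intron transcripts were left out of the gene length, Cxcl3 moved ahead of Cxcl14 and Cxcl10 at 17.2 CPM per kilobase, and Cxcl5 moved ahead of Cxcl11. Cxcl9, Cxcl11 and Cxcl5 averaged 3.97, 1.86 and 1.37 times the background, below the 5 times used as a bound here, and the other 6 members averaged 15.6 times or more. The bound takes the mean ratio over the 4 libraries, to which Vaseline 2, with the lowest background, can add most. Cxcl3 was at 4.74 times in Vaseline 1 and 39.3 in Vaseline 2, and Cxcl10 at 5.14 in imiquimod 2 and 37.1 in Vaseline 2. Genes high in Vaseline 2 therefore pass the bound more easily.

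**Figure D1:**
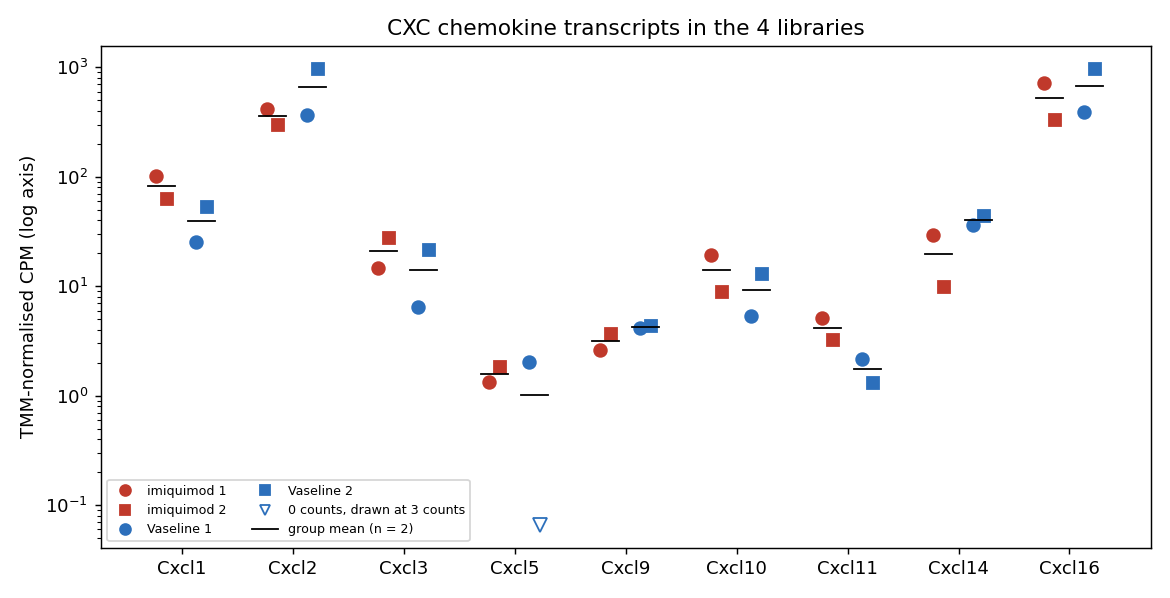
TMM-normalised CPM (log axis) of the 9 members, with imiquimod libraries in red and Vaseline libraries in blue, circles for replicate 1, squares for replicate 2, and black lines for group means. Cxcl1 and Cxcl11 lay higher and Cxcl9 and Cxcl14 lower in both imiquimod libraries, and Cxcl5 had 0 counts in Vaseline 2 and is drawn at 3 counts.

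No member passed the edgeR quasi-likelihood test over all genes, in which 0.0634% of 39439 tested genes were called higher and 0.137% lower with imiquimod at an adjusted p under 0.05. All 9 members passed the filter on low counts, 0 had an unadjusted p under 0.05 (8.63% of all tested genes did so as higher and 5.1% as lower), and limma-voom on the same genes also called 0 members. DESeq2 also called 0, but gave no adjusted p for Cxcl5, Cxcl9 and Cxcl11. The log2 fold change of imiquimod over Vaseline was positive for 5 members and negative for 4, with a median of 0.58, beside 0.41 over all genes tested. The levels of the groups did not overlap for 4 members, 2 higher (Cxcl1 and Cxcl11) and 2 lower (Cxcl9 and Cxcl14), where 30.5% of all tested genes lay higher and 20.9% lower without overlap. The fold changes depend on the scaling. The median of all tested genes was 0.41 with TMM, 0.16 with RLE factors, 0.76 with upper-quartile factors and 1.30 on library totals, while the median of tested genes above the background bound was -0.69 with TMM. Of all tested genes 60.6% had a positive value with TMM, against 16.9% of tested genes above the bound. Relative to the all-gene median, Cxcl1 lay between 0.59 and 0.66, Cxcl2 between -1.37 and -1.26 and Cxcl14 between -1.68 and -1.41 under these scalings and DESeq2. Relative to genes above background with TMM, Cxcl1 lay 1.74 above their median, Cxcl2 lay at -0.20 and Cxcl14 at -0.37.

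Cxcl1, a neutrophil attractant made by many stromal, epithelial and myeloid cells (ENSMUSG00000029380; GRCm38 chromosome 5, 90891241 to 90893115, plus strand), had 101 and 62.5 CPM in imiquimod 1 and 2, against 25.6 and 52.9 CPM in Vaseline 1 and 2. Both imiquimod libraries lay above both Vaseline libraries, and the nearest pair, imiquimod 2 and Vaseline 2, differed by less than the spread within either group. The group levels were 81.8 ± 27.3 CPM with imiquimod and 39.3 ± 19.3 CPM with Vaseline (SD, n = 2 each). The log2 fold change was 1.05 (SE 0.67, edgeR adjusted p = 0.425). When the 14479 tested genes above background were fitted alone, the log2 fold change of Cxcl1 was 1.85 (SE 0.30, edgeR adjusted p = 0.313). On those genes DESeq2 gave 1.82 (SE 0.38, adjusted p = 0.000525) and so called Cxcl1 higher, where it called 0.677% of genes higher and 1.07% lower. The edgeR fit of the same genes called 0 genes in either direction, and at an unadjusted p under 0.05 it placed 781 genes higher and 694 lower. Cxcl1 shared no run of 31 bases or more with the transcripts of any other annotated gene.

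Cxcl2, a neutrophil attractant abundant in activated myeloid cells (ENSMUSG00000058427; chromosome 5, 90903871 to 90905938, plus strand), had 418 and 298 CPM in imiquimod 1 and 2, against 366 and 958 CPM in Vaseline 1 and 2. Only Vaseline 2 stood apart, and the groups overlapped. The log2 fold change was -0.89 (SE 1.05, edgeR adjusted p = 0.626), and it was -0.04 among genes above background.

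Cxcl3, a close paralog that also acts through CXCR2 (ENSMUSG00000029379; chromosome 5, 90786103 to 90789600, plus strand), had 14.6 and 27.4 CPM in imiquimod 1 and 2, against 6.53 and 21.5 CPM in Vaseline 1 and 2. The groups overlapped, with replicate 2 above replicate 1 in both. The log2 fold change was 0.59 (SE 0.59, edgeR adjusted p = 0.569), and 1.6 among genes above background (SE 0.62, adjusted p = 0.483). Cxcl2 and Cxcl3 transcripts share an identical run of 157 bases on the same strand, so some reads may have been placed in either gene, and the Cxcl3 level is uncertain next to the more abundant Cxcl2.

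Cxcl5, a CXCR2 ligand made chiefly by epithelia (ENSMUSG00000029371; chromosome 5, 90759360 to 90761624), had 21 and 63 counts in imiquimod 1 and 2, against 82 and 0 counts in Vaseline 1 and 2. Vaseline 2 was the deepest library and yet had no count, where 3 counts would equal 0.0659 CPM, while Vaseline 1 had the highest level at 2.04 CPM, at least 31-fold above that limit. Such limits cover counting error alone. The imiquimod levels of 1.34 and 1.84 CPM lay between the Vaseline values, and the log2 fold change was 0.73 (SE 0.86, edgeR adjusted p = 0.626). Without Vaseline 1 the gene was called higher (edgeR adjusted p = 0.00278), in a fit whose spread comes from the imiquimod pair and which assumes that the lone Vaseline library varies likewise, where 7.17% of genes were called higher and 0.768% lower. The Vaseline group was then at 0, and the mean imiquimod level was at least 24.1-fold higher than 3 counts in that library. Against the background, Cxcl5 was at 1.42 and 1.28 times in imiquimod 1 and 2, and at 2.785 and 0 times in Vaseline 1 and 2. These folds therefore stand on levels near the background.

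Cxcl10, an interferon-induced CXCR3 ligand (ENSMUSG00000034855; chromosome 5, 92346638 to 92348889, minus strand), had 19.1 and 8.91 CPM in imiquimod 1 and 2, against 5.31 and 13.1 CPM in Vaseline 1 and 2. The groups overlapped, and the log2 fold change was 0.58 (SE 0.59, edgeR adjusted p = 0.581). Among genes above background it was 1.38 (SE 0.42, edgeR adjusted p = 0.467).

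Cxcl9, an interferon-gamma-induced CXCR3 ligand (ENSMUSG00000029417; chromosome 5, 92321347 to 92328079), had 2.61 and 3.67 CPM in imiquimod 1 and 2, against 4.13 and 4.31 CPM in Vaseline 1 and 2. The imiquimod libraries lay below both Vaseline libraries, with a log2 fold change of -0.39 (SE 0.68, edgeR adjusted p = 0.745). The level was 1.71 and 1.58 times the background in the imiquimod libraries and 3.48 and 9.12 times in the Vaseline libraries.

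Cxcl11, the CXCR3 ligand of highest receptor affinity (ENSMUSG00000060183; chromosome 5, 92359544 to 92365485), had 5.16 and 3.20 CPM in imiquimod 1 and 2, against 2.17 and 1.32 CPM in Vaseline 1 and 2. The groups did not overlap, and the log2 fold change was 1.22 (SE 0.72, edgeR adjusted p = 0.406). The counts behind it were 81 and 110 with imiquimod and 87 and 60 with Vaseline, at 2.69 and 1.10 times the background in the imiquimod libraries and 1.45 and 2.22 times in the Vaseline libraries. Measured against the background, then, the groups overlapped. GENCODE vM21 annotates the locus as a polymorphic pseudogene, a gene that is intact in some strains and disrupted in the reference one. Exons of Gm2673 on the other strand cover 41.7% of its exonic bases, and the strand setting of the counting is not stated, which leaves the Cxcl11 level uncertain.

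Cxcl14, the epithelial member with homeostatic expression (ENSMUSG00000021508; chromosome 13, 56288643 to 56296551, minus strand), had 29.7 and 9.87 CPM in imiquimod 1 and 2, against 36.6 and 44.1 CPM in Vaseline 1 and 2. Both imiquimod libraries lay below both Vaseline libraries. The levels were 19.8 ± 14.0 CPM with imiquimod and 40.4 ± 5.32 CPM with Vaseline (SD, n = 2 each). The log2 fold change was -1.06 (SE 0.62, edgeR adjusted p = 0.405), or -0.39 among genes above background. Set against the keratinocyte gene Krt14, Cxcl14 had 0.458 and 0.573 counts per 100 Krt14 counts in imiquimod 1 and 2, and 0.659 and 0.589 in Vaseline 1 and 2. The nearest of these values, imiquimod 2 and Vaseline 2, almost touched.

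Cxcl16, the membrane-bound CXCR6 ligand and scavenger receptor (ENSMUSG00000018920; chromosome 11, 70453983 to 70459984, minus strand), had 716 and 331 CPM in imiquimod 1 and 2, against 388 and 973 CPM in Vaseline 1 and 2. The groups overlapped, with a log2 fold change of -0.38 (SE 1.09, edgeR adjusted p = 0.849) that was 0.40 among genes above background (SE 0.43, adjusted p = 0.750) and 0.45 on library totals. Set against Cd207, Cxcl16 had 59.7 and 57.6 counts per 100 Cd207 counts in imiquimod 1 and 2, and 17.2 and 14.2 in Vaseline 1 and 2, but 83.4% of genes above background were likewise higher relative to Cd207 without overlap and 0.228% lower. Zmynd15, on the other strand, covers 18.3% of its exonic bases.

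The make-up of the family within a library does not depend on any scaling between libraries, and it was compared for the 15 pairs of the 6 members above background. It can still depend on the background, which differed between libraries and weighs most on low members. Cxcl10 was at 16.8 and 5.14 times the background in imiquimod 1 and 2, and 5.985 and 37.1 in Vaseline 1 and 2. For Cxcl3 these were 8.24 and 10.2, and 4.74 and 39.3. Cxcl1 had 24.2 and 20.9 counts per 100 Cxcl2 counts in imiquimod 1 and 2, against 6.99 and 5.53 in Vaseline 1 and 2. Every imiquimod library exceeded every Vaseline library, by 2.99-fold at the least, and the Wilson 95% intervals of counting, 22.9 to 25.6 and 19.98 to 21.9 with imiquimod and 6.56 to 7.45 and 5.31 to 5.76 with Vaseline, lay far apart. The difference of the log2 ratio was 1.86, where the SD between libraries was 0.15 with imiquimod and 0.24 with Vaseline (n = 2 each). The smallest two-sided exact permutation p for 2 against 2 is 0.333, and this ratio had that value, so that test cannot reach 0.05 with these libraries. Of the other genes above background, 9.79% were higher relative to Cxcl2 without overlap and 13.2% lower.

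**Figure D2:**
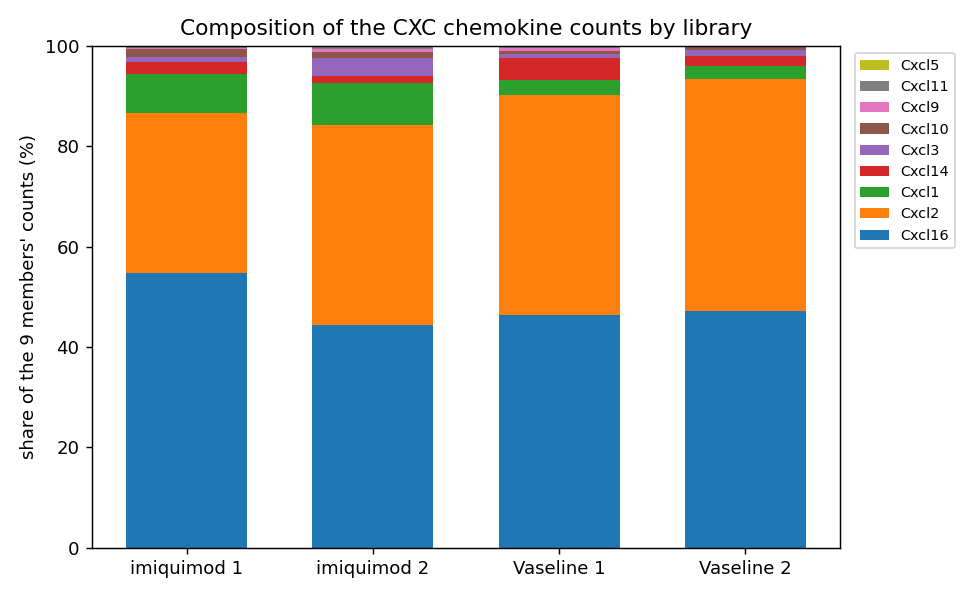
Share of each member (%) in the counts of all 9 members, one bar per library. Cxcl16 and Cxcl2 filled most of each bar, and the Cxcl1 share was 7.74% and 8.37% in imiquimod 1 and 2, against 3.06% and 2.56% in Vaseline 1 and 2.

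Cxcl10 was higher with imiquimod relative to both abundant members. It had 2.67 and 2.70 counts per 100 Cxcl16 counts in imiquimod 1 and 2, against 1.37 and 1.34 in Vaseline 1 and 2. The ratio was 1.98-fold higher, with a log2 SD of 0.0091 and 0.019 within the groups (exact permutation p = 0.333). The Wilson 95% intervals of counting were 2.383 to 2.997 and 2.407 to 3.02 with imiquimod. With Vaseline they were 1.196 to 1.567 and 1.239 to 1.457. The SDs within the groups were smaller than counting error alone would give, so they overstate the precision of the ratio. Only 3.35% of genes above background were higher relative to Cxcl16 without overlap, and 30.7% were lower. Against Cxcl2, Cxcl10 had 4.58 and 2.99 counts per 100 with imiquimod and 1.45 and 1.36 with Vaseline. Cxcl3 per 100 Cxcl2 counts was 3.50 and 9.17 with imiquimod and 1.78 and 2.25 with Vaseline, again without overlap but with an imiquimod range wider than its gap to the Vaseline values. The 157-base run that Cxcl2 and Cxcl3 share touches this ratio directly.

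Cxcl2 itself was lower relative to Cxcl16, at 58.3 and 90.3 counts per 100 with imiquimod and 94.5 and 98.4 with Vaseline, a gap that was small beside the difference between the imiquimod libraries. Cxcl14 relative to Cxcl2 overlapped between the groups, at 7.12 and 3.31 per 100 with imiquimod and 9.99 and 4.61 with Vaseline. Cxcl14 relative to Cxcl1 did not, at 29.4 and 15.8 per 100 with imiquimod and 143 and 83.3 with Vaseline. In all, 11 of the 15 pairs had groups that did not overlap, where 44.0% of all pairs of genes above background did so in one direction or the other. The pairs share members and libraries and are not independent.

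**Figure D3:**
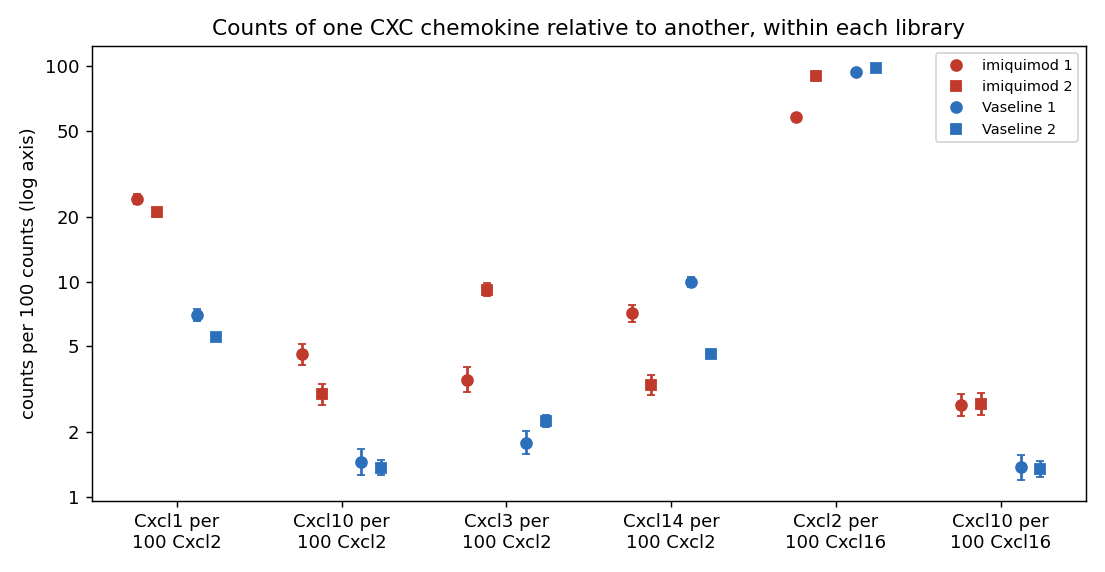
Counts of a member per 100 counts of another in the same library (log axis), imiquimod in red and Vaseline in blue, circles for replicate 1 and squares for replicate 2, with Wilson 95% intervals of counting. Cxcl1 per 100 Cxcl2 was 24.2 and 20.9 with imiquimod against 6.99 and 5.53 with Vaseline, while Cxcl14 per 100 Cxcl2 overlapped.

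The receptors of these ligands mark the cells that would answer them. None of the 8 CXC receptor genes passed the edgeR test (1 at an unadjusted p under 0.05), with 4 positive and 4 negative log2 fold changes and a median of -0.12. Cxcr2, the neutrophil receptor for Cxcl1, Cxcl2, Cxcl3 and Cxcl5, had 4.65 and 8.71 CPM in imiquimod 1 and 2, against 3.04 and 2.31 CPM in Vaseline 1 and 2. Its log2 fold change was 1.37 (SE 0.65, edgeR adjusted p = 0.343). Cxcr3 averaged 2.22 times the background, at 0.893 and 0.553 CPM with imiquimod and 1.54 and 1.41 CPM with Vaseline. Cxcr6, which binds Cxcl16, had 4.4 and 3.15 CPM with imiquimod and 5.68 and 5.40 CPM with Vaseline (log2 fold change -0.59, adjusted p = 0.607). The CPM of these 3 receptor genes did not overlap between the groups. Among all 8 receptor genes 3 lay higher and 3 lower without overlap, as did 30.5% and 20.9% of all tested genes. Cxcr2 averaged 3.52 times the background, at 3.01 and 3.71 times in the imiquimod libraries and 2.53 and 4.83 times in the Vaseline libraries, and on that scale its groups overlapped.

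Among 6 other CXC ligands none passed the test (1 in each direction had an unadjusted p below 0.05), and 5 had positive values. Those 5 lay below the background bound, while Pf4 lay above it and was negative. Of all tested genes 60.6% were positive, against 16.9% of those above the bound. Below the bound the share therefore exceeded 60.6%, and these signs say little of the ligands. Pf4 was at 4.71 and 6.87 times the background in imiquimod 1 and 2, and 63.1 and 134.3 times in Vaseline 1 and 2. Pf4, platelet factor 4, had 1.72 and 3.82 CPM with imiquimod and 17.9 and 15.2 CPM with Vaseline (log2 fold change -2.49, SE 0.65, edgeR adjusted p = 0.0557). Cxcl13, a B cell attractant, had 1.59 and 4.69 CPM with imiquimod and 0.697 and 0.439 CPM with Vaseline (log2 fold change 2.58, SE 0.85, adjusted p = 0.188). Cxcl12, the stromal CXCR4 ligand, had 11.9 and 9.58 CPM with imiquimod and 8.77 and 9.51 CPM with Vaseline.

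Genes of the IL-1, TNF, IL-17 and NF-kappaB axis, which induces Cxcl1, Cxcl2 and Cxcl3, had values of both signs: of 17 tested none passed (1 at an unadjusted p under 0.05), 6 were positive and 11 negative, and the median was -0.24. In that fit 16.9% of all tested genes above background were positive. In the edgeR fit of genes above background alone, 10 of 15 were positive and the median was 0.38, beside 55.6% and 0.076 over all its genes. Il1b, the secreted IL-1 form, had 587 and 721 CPM in imiquimod 1 and 2, against 105 and 347 CPM in Vaseline 1 and 2. Its groups did not overlap, and the log2 fold change was 1.53 (SE 1.02, edgeR adjusted p = 0.440), and among genes above background 2.49, where DESeq2 called it (adjusted p = 0.000816) and edgeR did not (adjusted p = 0.428). Il1a was the other gene of the list that DESeq2 called there (2.28, adjusted p = 1.39e-05). Tnf was on the other side, with 96.5 and 57.0 CPM with imiquimod and 102 and 226 CPM with Vaseline (log2 fold change -1.10, adjusted p = 0.447). Nfkbiz, the NF-kappaB cofactor of the IL-17 response, overlapped at 367 and 228 CPM with imiquimod and 325 and 439 CPM with Vaseline. Il17a had 0 counts in imiquimod 1 and 2.51 CPM in imiquimod 2, against 0.523 and 1.08 CPM in Vaseline 1 and 2.

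Of 14 genes of the interferon axis that induces Cxcl9, Cxcl10 and Cxcl11, none passed (1 in each direction had an unadjusted p below 0.05), 4 were positive and 10 negative, and the median was -0.56. These signs depend on the scaling: in the edgeR fit of genes above background alone, 6 of 12 were positive and the median was 0.06. In the fit of all genes only 16.9% of tested genes above background were positive. Irf7, a transcription factor induced by type I interferon and named after its values were seen, had 43.0 and 25.2 CPM in imiquimod 1 and 2, against 9.74 and 11.0 CPM in Vaseline 1 and 2. Its log2 fold change was 1.71 (SE 0.61, edgeR adjusted p = 0.232), and among genes above background DESeq2 called it higher (2.40, adjusted p = 1.95e-07) and edgeR did not (2.43, adjusted p = 0.219). It was the only gene of the list that DESeq2 called there. Irf1, an interferon-induced transcription factor, had 88.4 and 41.2 CPM with imiquimod and 94.4 and 88.7 CPM with Vaseline (log2 fold change -0.50, adjusted p = 0.672). Ifng, which encodes interferon-gamma, had 2.04 and 1.57 CPM with imiquimod and 0.971 and 0.330 CPM with Vaseline, at a mean of 2.05 times the background. Of 4 protease genes, none passed: Adam10 had 40.0 and 20.9 CPM with imiquimod and 60.3 and 90.9 CPM with Vaseline (log2 fold change -1.32, SE 0.66, edgeR adjusted p = 0.360), and Adam17 overlapped between the groups.

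Markers of other cell types differed between the same libraries, and their part in the values of the members was not tested. Of 9 neutrophil markers 9 had positive fold changes and 2 passed, S100a8 (2.69, edgeR adjusted p = 0.0193) and Mmp8 (3.45, adjusted p = 0.0012), the second named after its values were seen. Of all tested genes 60.6% were positive and 0.0634% were called higher. Only 16.9% of tested genes above the background bound were positive, so below it the share exceeded 60.6%. Of the 9 markers 3 lay above the bound, and for the rest a positive sign says little. Mmp8 averaged 4.29 times the background, at 2.23 and 11.65 times in imiquimod 1 and 2 and 1.96 and 1.33 times in Vaseline 1 and 2. The summed level of the 9 markers was 69.0 and 260 CPM in imiquimod 1 and 2, against 13.2 and 47.9 CPM in Vaseline 1 and 2, with Camp at 0 counts in imiquimod 1. S100a9, the largest part of that sum in both imiquimod libraries, had 39.1 and 151 CPM there and 0.772 and 30.9 CPM with Vaseline. Ly6g, which defines neutrophils, was at 1.85 and 1.95 CPM with imiquimod and 1.37 and 1.23 CPM with Vaseline. Against the background Ly6g overlapped, at 3.87 and 2.69 times in imiquimod 1 and 2 and 3.695 and 8.34 times in Vaseline 1 and 2. Cxcl1 was highest in imiquimod 1, and the neutrophil sum and Cxcl3 were highest in imiquimod 2.

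Activated keratinocyte markers summed to 1431 and 421 CPM in imiquimod 1 and 2, against 351 and 753 CPM in Vaseline 1 and 2, with overlap, and 5 of 5 tested members had positive fold changes, none past the edgeR test, while DESeq2 among genes above background called Krt6a and Krt6b higher. Defb4 was not tested. Langerhans cell markers summed to 6330 and 5207 CPM with imiquimod and 17400 and 47010 CPM with Vaseline, with 10 of 10 fold changes negative, none past the edgeR test, and no marker of the list at 0. All 10 lay above background, and in the fit of all genes only 16.9% of such tested genes were positive. Among genes above background, DESeq2 called 5 of the 10 lower, Cd207, Itgax, Cd74, Csf1r and Mfge8, and edgeR called none. Of all those genes DESeq2 called 0.677% higher and 1.07% lower. In that edgeR fit 0 of the 10 were positive and the median was -1.405, beside 55.6% positive and a median of 0.076 over all its genes. Epcam, their adhesion molecule, had 238 and 55.7 CPM with imiquimod and 273 and 543 CPM with Vaseline. Krt16, a keratin of activated epidermis, had 610 and 153 CPM with imiquimod and 123 and 311 CPM with Vaseline. Keratinocyte markers summed to 15790 and 4332 CPM with imiquimod and 16850 and 19910 CPM with Vaseline, with 9 of 10 fold changes negative and none past the test, and basal Krt5 had 3586 and 1157 CPM with imiquimod and 4950 and 6293 CPM with Vaseline. All 10 keratinocyte markers also lay above background, where 16.9% of tested genes were positive in the fit of all genes, so this count says little of these cells. In the edgeR fit of genes above background alone, 5 of the 10 keratinocyte markers were positive, beside 55.6% of all its genes. Relative to Cd207 each of the 6 members above background was higher in both imiquimod libraries, as were most genes (83.4%), so this count says nothing particular of the members. Cxcl1 had 8.43 and 10.9 counts per 100 Cd207 counts there, against 1.14 and 0.771 in Vaseline 1 and 2. Relative to Krt14, Cxcl1 and Cxcl10 were higher, Cxcl14 was lower, and Cxcl2, Cxcl3 and Cxcl16 overlapped, where 16.9% of genes above background were higher and 4.57% lower without overlap. Cxcl1 per 100 Krt14 counts was 1.56 and 3.63 with imiquimod and 0.461 and 0.707 with Vaseline.

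The remaining marker lists were summed in the same way. T cell markers, of which 8 of 9 had negative values and none passed, came to 164 and 137 CPM with imiquimod and 285 and 320 CPM with Vaseline, with Cd3e at 22.1 and 28.3 CPM with imiquimod and 45.6 and 40.6 CPM with Vaseline. Monocyte and macrophage markers, with 6 of 9 positive and none past the test, came to 110 and 166 CPM with imiquimod and 207 and 241 CPM with Vaseline. Of the T cell markers 8 of 9 lay above background, and of the monocyte and macrophage markers 4 of 9. In the fit of all genes 16.9% of tested genes above background were positive. In the edgeR fit of genes above background alone, 5 of 8 T cell markers and 2 of 4 monocyte and macrophage markers were positive, beside 55.6% of all its genes. Fibroblast markers came to 26.7 and 55.2 CPM with imiquimod and 35.4 and 139 CPM with Vaseline, with 1 of 6 called lower, the collagen gene Col3a1 (edgeR adjusted p = 0.0408), named after its values were seen, whose groups overlapped. Endothelial, mast cell and melanocyte markers stayed at or under 43.9, 6.90 and 15.4 CPM in sum in every library.

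**Figure D4:**
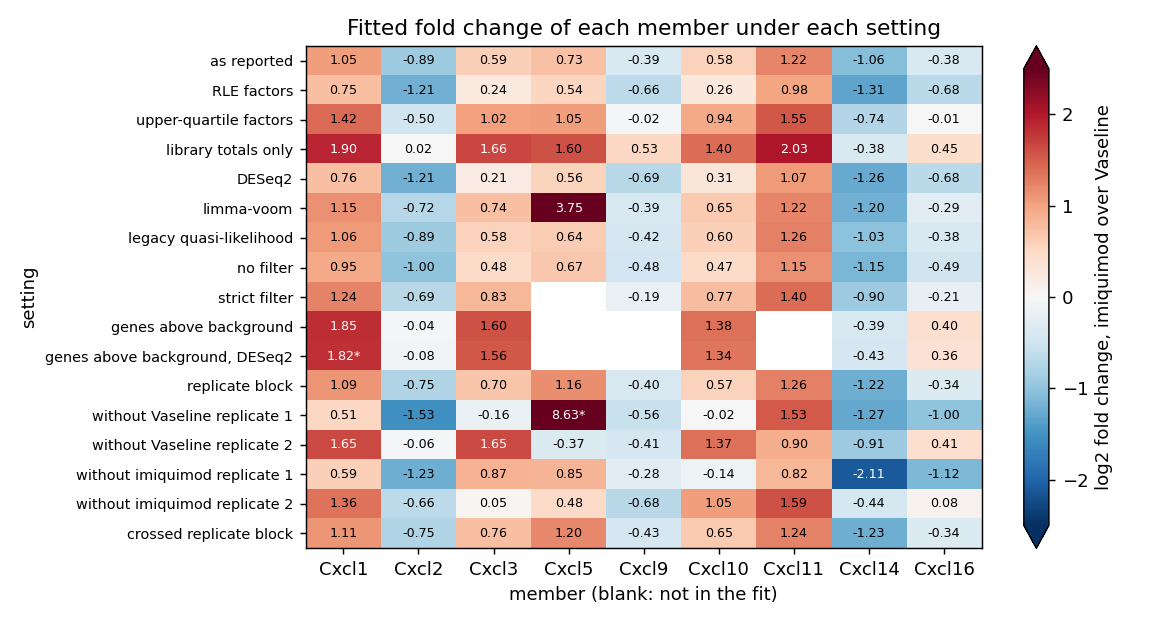
Log2 fold change of imiquimod over Vaseline for each member (columns) under each setting (rows), red for higher and blue for lower, with an asterisk for an adjusted p under 0.05. Cxcl1 and Cxcl11 were positive and Cxcl14 negative in every fit that held them, and Cxcl16 took both signs.

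The profiles of the members over the 4 libraries were compared last. Distance was taken as the root mean square difference of log2(CPM + 0.5) after centring each gene, which is a description over 4 libraries with no test. Cxcl1 and Cxcl10 were the nearest pair of members at 0.283, followed by Cxcl2 and Cxcl16 at 0.303. Among 10359 named protein-coding genes above background other than the members, the nearest to Cxcl1 were Tnfsf18 at 0.144, which encodes the ligand of GITR, Sprr2k at 0.209, a small proline-rich protein of the cornified envelope, and Gjb2 at 0.213, which encodes connexin 26. Tnfsf18 had 10.6 and 5.65 CPM with imiquimod and 1.82 and 3.98 CPM with Vaseline. Only 1 gene lay within 0.2 of Cxcl1, against 203 of Cxcl2 and 80 of Cxcl16. The nearest to Cxcl2 were Slc2a1, the glucose transporter GLUT1, at 0.045, Tmem68 and Smox, a spermine oxidase, and the nearest to Cxcl16 were Usb1 at 0.0351, Fam167a and Ass1, which makes argininosuccinate.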

How the data were processed

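RNA of isolated ear Langerhans cells was measured in 4 libraries, made per the labels' protocols with a stranded total RNA kit for low input. The deposited values are raw counts per gene. Per the submitters' processing notes, the authors used Trimmomatic, HISAT2, SAMtools and StringTie with build GRCm38; versions, annotation, strand setting and multi-mapped reads are not given in the sources used here. Counts were tested with the edgeR 4.0.16 quasi-likelihood test in R 4.3.3 (TMM factors, filterByExpr with minimum count 10 and minimum total 15, two-sided, Benjamini-Hochberg over 39439 genes, threshold 0.05). DESeq2 1.42.0 and limma-voom (limma 3.58.1) were alternatives. SE was taken as the absolute log2 fold change divided by the root of the F statistic. Gene lengths and overlaps came from GENCODE vM21, with exon unions as lengths. Genes above background averaged at least 5 times the receptor-gene median per kilobase, as the mean of the 4 library ratios. The procedure was tested on simulated data. Chi-square per degree of freedom between libraries of a group was 69.4 with imiquimod and 73.4 with Vaseline, so none was a repeat deposit. Named genes were all members, pathway and marker genes listed by name (1 of them is not reported here), and the 3 nearest profiles to the 3 members of largest total count. Members, lists and tests were chosen with earlier results of these data known, and the ratios after their values were seen. Python 3.11.15 (numpy 2.4.6, pandas 2.3.3, scipy 1.17.1) served for summaries and matplotlib 3.10.9 for plots. PCR copies cannot be told from separate molecules in these counts, so intervals and floors cover counting error only.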

Additional observations from a re-analysis of the deposited data

How the results depend on the processing

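Beside the reported fit 16 other settings were run, 15 of them listed at the start and the crossed pairing added after the data were seen. The number of members called higher was 0 in all but 2 of them: it was 1 with DESeq2 on genes above background (Cxcl1) and 1 without Vaseline 1 (Cxcl5). Over fits that leave out a library this number ran from 0 to 1. No setting called a member lower. The median log2 fold change of the members, 0.58 as reported, was 0.24 with RLE factors, 0.94 with upper-quartile factors, 1.40 on library totals, 0.21 with DESeq2, 0.29 over the 8 members that passed the strict filter (at least 10 counts in each library and 50 in total), 0.89 over the 6 members among genes above background and 0.85 there with DESeq2. It ran from -0.16 to 0.41 when a library was left out. Of 137 member values under these settings 11 changed sign, and the cause was not tested. On library totals Cxcl2 had 0.017, Cxcl9 0.53 and Cxcl16 0.45. Cxcl16 had 0.40 among genes above background and 0.36 there with DESeq2. When a library was left out, Cxcl16 ran from -1.12 to 0.41, Cxcl10 from -0.14 to 1.37, Cxcl3 from -0.16 to 1.65 and Cxcl5 from -0.37 to 8.63, a fitted value over a group at 0 counts that is no measured size. The Cxcl1 value was positive in all 16 (0.51 to 1.90), Cxcl11 in all 14 that held it (0.82 to 2.03), and Cxcl14 was negative in all 16 (-2.11 to -0.38). The log2 ratio of Cxcl1 to Cxcl2 differed by 1.86, and by 1.69 to 2.03 when a library was left out. Over all genes, 25 higher and 54 lower as reported, calls ran from 0 to 2958 higher, the highest without Vaseline 1, and from 0 to 669 lower, the highest with DESeq2. With a replicate block 0 members, 1 gene higher and 0 lower were called, and the block changed no member's call. Equal numbers mark no shared animal or day in the labels, and same-numbered libraries deviated in opposite directions (correlation across genes -0.407 over all tested genes and -0.134 over those above background). With the pairing crossed 0 genes were called in either direction. Depth limits the low members most, since Cxcl5 had 166 counts over the 4 libraries, Cxcl11 338 and Cxcl9 529, and library totals ranged over 5.10-fold.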
